A study of Saccharomyces cerevisiae with 18 samples.

Results

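RNA helicases of the DEAD-box family drive the rearrangements by which a ribosome is built. The genes described here, HCA4 (YJL033W), ROK1 (YGL171W), HAS1 (YMR290C), DBP3 (YGL078C), DBP7 (YKR024C), DBP9 (YLR276C), MAK5 (YBR142W), DRS1 (YLL008W), SPB4 (YFL002C) and DBP10 (YDL031W), encode 10 such enzymes of Saccharomyces cerevisiae and were picked by name out of the 6746 features of a count table. All 10 have a row in the table and all passed the filter on low counts. They were listed with results of these same libraries known, and which of the measured values led to the list is not recorded. Every difference between groups is therefore given for them as a description of the 18 libraries, with counts of calls but no p-value, and is not independent support for a pattern.

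Poly(A) RNA was sequenced from 2 strains in 3 conditions, with 3 libraries in each of the 6 groups. In both strains, which the labels call FY406 MATa, LEU2 replaces the chromosomal pair hta1-htb1 and TRP1 replaces hta2-htb2, in a background that also carries his3delta200, leu2delta1, ura3-52, trp1delta63 and lys2-128delta, so the only H2A and H2B genes intended are HTA1 and HTB1 on a plasmid. The mutant plasmid, HTA1-HTB1 S121A-HIS3, encodes histone H2A with alanine in place of a serine near its C-terminus, and the wild-type (WT) plasmid, HTA1-HTB1 wt-HIS3, encodes the unchanged protein. The labels write the marker as HIS3, HIS4 and HIS5 in replicates 1, 2 and 3 of every group, and these were treated as replicates of 1 strain. Log-phase cells in YPD at 30 °C were the unstressed groups, and the others were exposed to 0.4 M NaCl for 15 min or to 39 °C for 10 min. Nothing in the labels says that the replicates came from separate cultures, so the spread between libraries may be technical.

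The libraries held 39.6 to 53.03 M counts each (M for mega). CPM below is the count of a gene per 1 M counts after scaling by trimmed means (TMM). Before that scaling, a count of 3 was worth at most 0.0758 per 1 M counts. After it, 6 counts of ROK1 in WT heat replicate 1 were worth 0.179 CPM. The 5 MATa marker genes summed to between 420.1 and 2824 CPM and the 4 alpha marker genes to between 43.8 and 101 CPM, most of it from SAG1, with the pheromone genes MFALPHA1 and MFALPHA2 at or below 2.48 CPM. HTA1 and HTB1 together held 1392 to 2623 CPM, and the deleted pair HTA2 and HTB2 held 46.1 to 70.5 CPM, where reads shared between paralogs cannot be separated. Counts per gene do not show the changed codon, so they do not check the mutation. In bulk RNA, fewer transcripts per cell and a larger pool of other transcripts cannot be told apart.

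In yeast, ribosomal RNA is transcribed as 1 long precursor in the nucleolus, on which snoRNAs, assembly factors and ribosomal proteins gather before it is cleaved into the parts of the small and the large subunit. DEAD-box helicases use ATP to open short RNA duplexes, and several are known to release a particular snoRNA or to let a folded segment settle. Transcription of this whole set of genes is known to be cut when yeast is stressed and to return when growth resumes. HCA4, also called DBP4, frees the snoRNA U14 from the precursor, and ROK1 frees snR30; both serve the small subunit. HAS1 serves both subunits. DBP3, DBP7, DBP9, MAK5, DRS1, SPB4 and DBP10 act in the large subunit, the first 4 on early particles and the last 3 on later nucleolar ones.

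Many yeast genes of this kind carry 2 short promoter elements, PAC, which the Myb-like repressors Dot6 and Tod6 bind, and RRPE, which Stb3 binds. The RefSeq sequence of build R64 was searched, on both strands and counting overlapping matches, for the PAC core GATGAG and the RRPE core AAAAATTTT in the 300 bases before each start codon. A PAC core was present before all 10 genes, against 19.1% of the 6001 protein-coding genes, and an RRPE core before 7 of 10, against 7.33%. Both cores stood before 7 of the 10, against 3.67% of all genes. HCA4 and DBP9 each held 4 PAC cores in a row, every copy sharing 1 base with the next, and 4 or more copies were found before 7 of the 6001 genes (0.117%). DRS1, HAS1 and MAK5 held 2 PAC cores and the others 1. DBP7, MAK5 and DBP10 had no RRPE core in this window. A match is a description of the letters and no evidence that a protein binds there.

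Shown next are 6 of these windows, from base -300 to base -61 before the start codon. They carry these repeats, or the gene stood at one end of the range of genotype differences below. HAS1, whose 2 PAC cores overlap at base -101, is not shown. Picked partly by those differences, the windows do not show whether repeats go with them. Capitals mark PAC cores, which read CTCATC when on the other strand, and RRPE cores, which share letters where both strands match. The window of HCA4 lies at chrX:383537-383776 (plus strand), that of DBP9 at chrXII:696891-697130 (minus) and that of ROK1 at chrVII:182090-182329 (plus). The window of DRS1 lies at chrXII:131429-131668 (plus), that of SPB4 at chrVI:146995-147234 (minus) and that of DBP7 at chrXI:487433-487672 (minus). Each window is written 5′ to 3′ along the gene. The first 104 bases of the SPB4 window lie in the neighbouring gene DEG1 and the first 29 of the ROK1 window in NUP49.
HCA4: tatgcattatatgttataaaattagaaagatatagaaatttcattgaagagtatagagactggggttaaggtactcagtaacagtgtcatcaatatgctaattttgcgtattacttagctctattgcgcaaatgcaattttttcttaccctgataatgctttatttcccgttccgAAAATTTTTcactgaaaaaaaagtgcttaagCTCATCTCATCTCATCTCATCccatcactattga
DBP9: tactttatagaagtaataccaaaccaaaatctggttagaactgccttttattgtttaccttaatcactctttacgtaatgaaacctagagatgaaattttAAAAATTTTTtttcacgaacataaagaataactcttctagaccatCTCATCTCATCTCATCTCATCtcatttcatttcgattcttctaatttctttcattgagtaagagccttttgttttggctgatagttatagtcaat
ROK1: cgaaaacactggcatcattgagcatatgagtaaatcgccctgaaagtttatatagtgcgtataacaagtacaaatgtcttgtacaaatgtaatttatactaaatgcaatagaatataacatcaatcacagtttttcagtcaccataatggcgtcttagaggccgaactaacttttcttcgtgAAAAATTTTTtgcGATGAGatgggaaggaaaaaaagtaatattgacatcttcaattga
DRS1: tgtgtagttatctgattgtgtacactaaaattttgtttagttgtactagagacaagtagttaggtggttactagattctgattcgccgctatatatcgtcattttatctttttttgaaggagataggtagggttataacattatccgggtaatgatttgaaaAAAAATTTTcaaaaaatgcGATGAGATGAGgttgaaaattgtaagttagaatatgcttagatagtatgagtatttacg
SPB4: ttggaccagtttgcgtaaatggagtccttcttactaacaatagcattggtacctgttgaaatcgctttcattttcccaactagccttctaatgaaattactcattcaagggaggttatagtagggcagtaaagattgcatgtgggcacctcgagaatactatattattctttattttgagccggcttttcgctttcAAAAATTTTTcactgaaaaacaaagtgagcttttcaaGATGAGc
DBP7: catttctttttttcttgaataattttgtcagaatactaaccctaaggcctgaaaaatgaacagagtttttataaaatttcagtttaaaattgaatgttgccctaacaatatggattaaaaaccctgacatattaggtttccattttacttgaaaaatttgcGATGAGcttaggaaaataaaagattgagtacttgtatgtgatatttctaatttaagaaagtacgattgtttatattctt

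**Figure D1:**
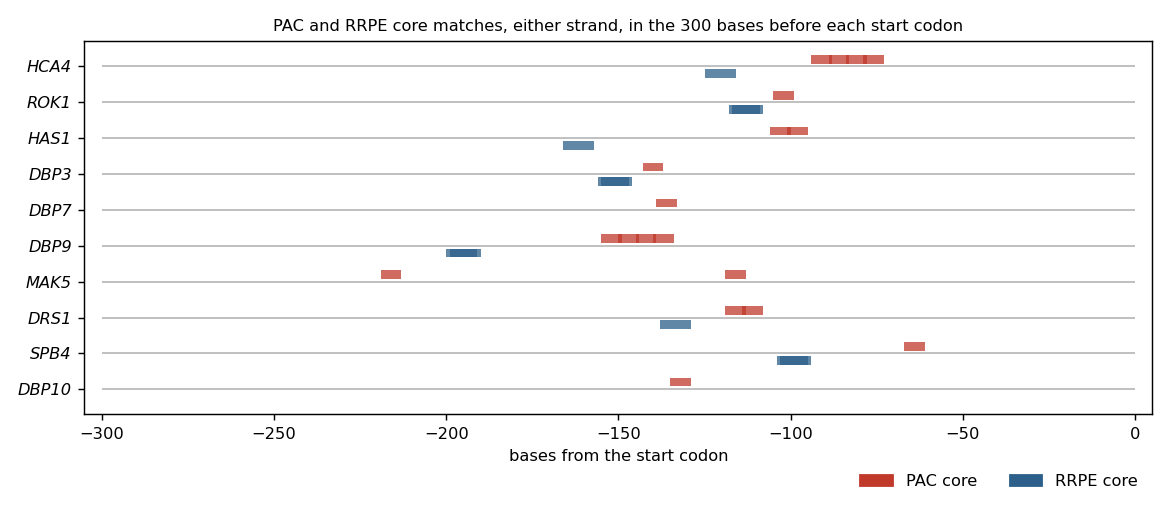
Positions of the PAC core (red) and RRPE core (blue) matches, either strand, in the 300 bases before the start codon of each helicase gene; the x axis is distance in bases from the start codon and overlapping boxes are overlapping matches. The runs of 4 PAC cores stand at -94 to -74 in HCA4 and at -155 to -135 in DBP9.

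Per the R64 annotation the 10 genes lie on 8 chromosomes, XII holding both DRS1 and DBP9 and VII both ROK1 and DBP3, with no annotated RefSeq gene overlapping any of them; dubious reading frames that the count table lists beyond RefSeq were not placed. Their coding lengths give proteins of 505 residues for HAS1 to 995 for DBP10. HCA4 (chromosome X, 383837 to 386149) begins 461 bases beyond the end of KAR2, which encodes the Hsp70 of the endoplasmic reticulum and reads in the same direction.

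Without stress none of the 10 genes passed the test between the mutant and WT. Per kb of gene, HAS1 had the highest level, 108 CPM per kb in S121A and 104 in WT, followed by DBP3 with 71.8 in S121A and 68.4 in WT. The other 8 lay between 17.0 and 34.1 CPM per kb in S121A and between 17.6 and 34.2 in WT. Of the 10, 0 were called different by edgeR at an adjusted p under 0.05, where 23.1% of the 6395 genes tested were. An unadjusted p under 0.05 was found for 0, where 2242 of the 6395 genes had one. DESeq2 called 0 too, where it called 1671 of 6409 genes. Their log2 differences, S121A over WT, ran from -0.06 ± 0.09 (SE) for DRS1 to 0.17 ± 0.08 for HCA4. HCA4 had 64.5, 62.6 and 59.6 CPM in unstressed S121A and 55.3, 54.0 and 56.8 CPM in unstressed WT. These libraries did not overlap, as was so for 49.9% of all genes, and HCA4 was called with library totals alone (0.34) and with the unstressed libraries alone (0.21, where DBP9 was called as well at 0.18). With library totals alone the median over all genes was itself 0.15.

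**Figure D2:**
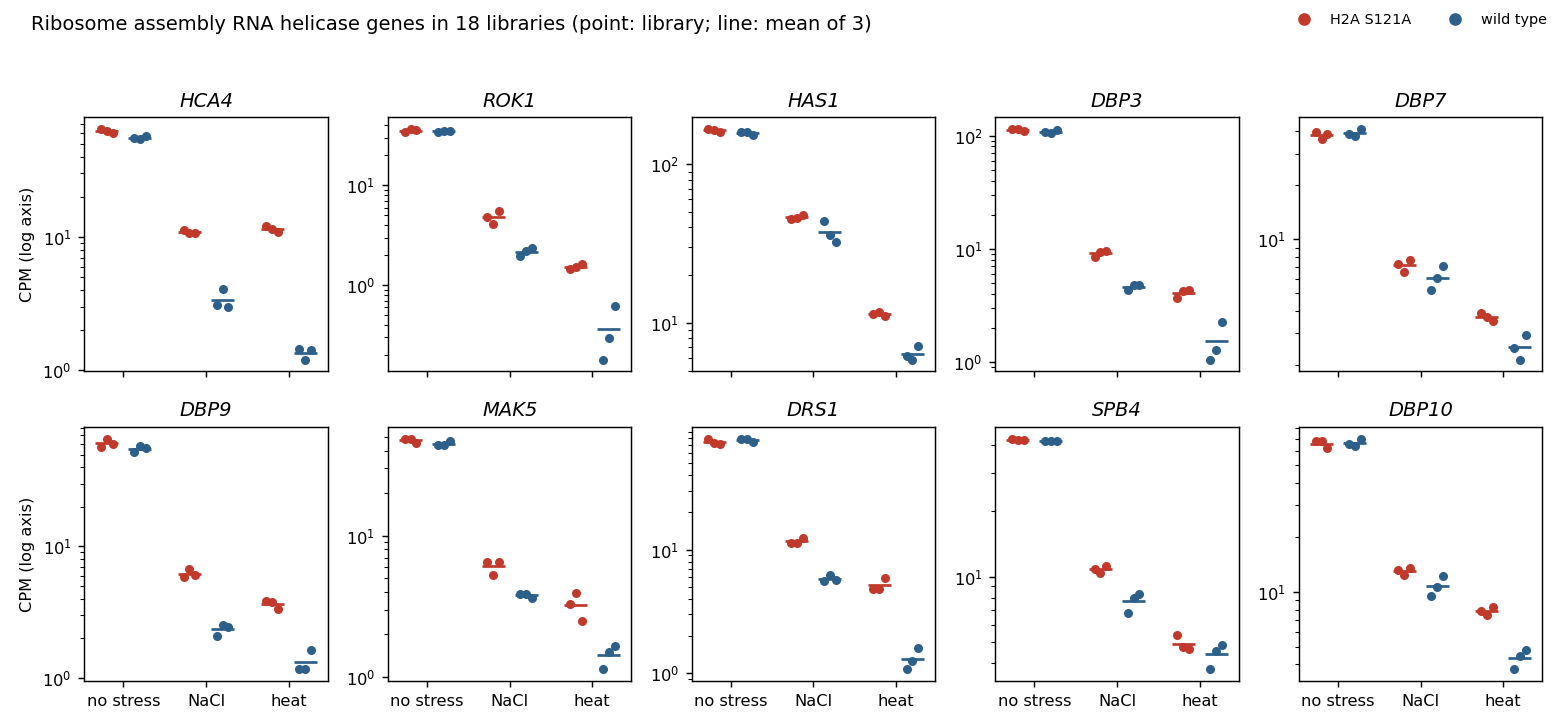
CPM (log axis, a scale of its own per gene) of the 10 helicase genes in each library, S121A in red and WT in blue, with points for libraries and lines for means of 3. All genes were lower in both stresses than without stress in both strains, and HCA4 in S121A averaged 11.5 CPM in heat and 10.9 CPM in NaCl.

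After 15 min in NaCl all 10 helicase genes were called lower than without stress, in S121A and in WT alike. In S121A 35.3% of all genes were called lower and in WT 37.2%, and nothing is read from the members' count because such falls were known when they were listed. The median log2 fold change of the 10 was -2.60 in S121A and -3.66 in WT, where the medians of all genes were -0.01 in both. DBP3 kept 8.05% of its unstressed mean in S121A and 4.27% in WT, and DBP9 kept 10.2% in S121A and 4.25% in WT. At the other end HAS1 kept 28.4% in S121A and 23.7% in WT.

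After 10 min at 39 °C all 10 were again called lower than without stress, where 39.7% of all genes were in S121A and 39.3% in WT, with a median log2 fold change of -3.85 in S121A and -5.16 in WT. ROK1 had the lowest levels. It was at 1.44, 1.53 and 1.62 CPM in heated S121A and at 0.179, 0.295 and 0.619 CPM in heated WT, the last from 6 to 27 counts per library. Its log2 fold change against no stress was -4.54 ± 0.16 in S121A and -6.52 ± 0.19 in WT, so ROK1 kept 4.30% of its unstressed mean in heated S121A and 1.04% in heated WT. SPB4 kept the most in heated WT, 10.5%, and 11.6% in heated S121A.

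**Figure D3:**
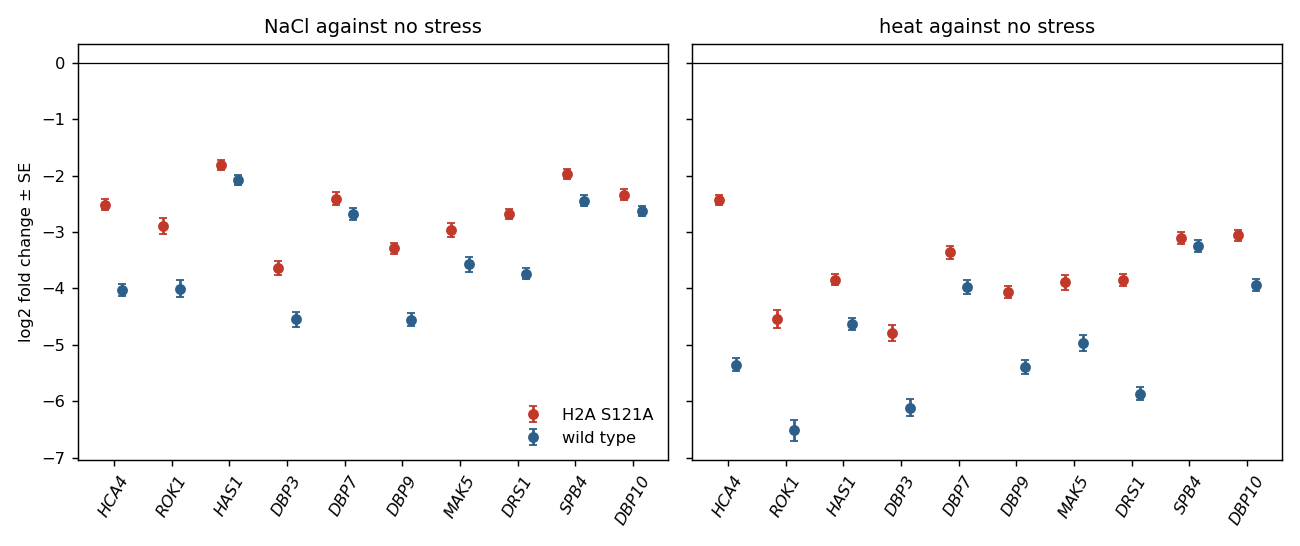
Log2 fold change (± SE) of each helicase gene in NaCl (left) and in heat (right) against no stress, for S121A in red and WT in blue. Every point is below 0 and every S121A point is above its WT point; the widest gap is HCA4 in heat, -2.43 in S121A and -5.35 in WT.

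Heated WT held less RNA of all 10 genes than WT in NaCl, and all 10 were called lower, against 33.2% of genes. In S121A 9 of the 10 were called lower in heat than in NaCl, against 33.6% of genes, and HCA4 was the one that was not. HCA4 had 12.1, 11.5 and 11.0 CPM in heated S121A and 11.3, 10.8 and 10.7 CPM in S121A in NaCl. These overlapping values gave a log2 difference of 0.08 ± 0.09, which turned to -0.24, and was called, with library totals alone. In WT the same comparison gave -1.32 ± 0.12. For the other 9 genes the heat against NaCl value ran from -2.03 for HAS1 to -0.72 for DBP10 in S121A, and from -2.55 for HAS1 to -0.80 for SPB4 in WT.

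In NaCl the mutant held more helicase RNA than WT. Of the 10 genes 9 were called higher in S121A and 0 lower, where 14.6% of all genes were called higher and 9.19% lower; all 10 values were above 0, with a median of 0.84 against 0.00 over all genes. The libraries of the groups did not overlap for 9 of the 10, as for 38.7% of all genes. HCA4 had 11.3, 10.8 and 10.7 CPM in S121A and 3.08, 4.09 and 3.01 CPM in WT, all 3 mutant libraries above the WT ones, a log2 difference of 1.68 ± 0.10 or 3.21-fold. ROK1 had 4.77, 4.07 and 5.48 CPM in S121A and 1.96, 2.19 and 2.34 CPM in WT, a difference of 1.14 ± 0.16.

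Among the large-subunit helicases DBP9 differed most in NaCl. It had 5.86, 6.69 and 6.10 CPM in S121A and 2.09, 2.54 and 2.45 CPM in WT, again without overlap, a log2 difference of 1.40 ± 0.12. DRS1 was higher in S121A by 1.00 ± 0.10, DBP3 by 0.98 ± 0.13, MAK5 by 0.69 ± 0.13 and SPB4 by 0.48 ± 0.09. HAS1, with 45.0, 46.0 and 48.2 CPM in S121A and 43.6, 36.0 and 32.3 CPM in WT, was called at 0.31 ± 0.09. Without S121A NaCl replicate 3 (0.29), without WT NaCl replicate 3 (0.22) and with the NaCl libraries alone (0.31) HAS1 was no longer called. DBP10 was called at 0.27 ± 0.09, and its call ended without S121A NaCl replicates 1 (0.26), 2 (0.30) or 3 (0.24), without WT NaCl replicates 1 (0.19) or 2 (0.26), with median-ratio size factors (0.25), with library totals alone (0.28) and with the NaCl libraries alone (0.27). DBP7, at 7.30, 6.57 and 7.64 CPM in S121A and 5.19, 6.10 and 7.09 CPM in WT, overlapped and was not called at 0.23 ± 0.11, but was without WT NaCl replicate 3 (0.35).

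The estimated genotype difference was wider in heat than in NaCl for 9 of the 10 genes and HCA4 stood highest. For DBP9, counted among the 9, the values were 1.46 ± 0.14 in heat and 1.40 ± 0.12 in NaCl, a gap smaller than either SE. Whether the genotype difference itself differed between the stresses was not tested. HCA4 had 12.1, 11.5 and 11.0 CPM in heated S121A and 1.46, 1.20 and 1.42 CPM in heated WT, a log2 difference of 3.09 ± 0.12 or 8.49-fold, the 9th highest of 6395 genes. ROK1 was higher in S121A by 2.01 ± 0.25. DRS1, at 4.76, 4.79 and 5.91 CPM in S121A and 1.07, 1.25 and 1.61 CPM in WT, was higher by 1.96 ± 0.13. In all 9 of 10 were called higher and 0 lower, where 19.5% of all genes were called higher and 14.2% lower, with a median of 1.28 where the median of all genes was -0.00. The libraries did not overlap for 9 of the 10, as for 35.7% of all genes.

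DBP9 had 3.85, 3.74 and 3.32 CPM in heated S121A and 1.16, 1.16 and 1.63 CPM in heated WT, a difference of 1.46 ± 0.14. DBP3 had 3.69, 4.25 and 4.29 CPM in heated S121A and 1.04, 1.27 and 2.25 CPM in heated WT, a difference of 1.39 ± 0.17. In both the mutant libraries were all above the WT ones. MAK5 (1.16 ± 0.16) followed, then DBP10 (0.86 ± 0.10), HAS1 (0.83 ± 0.10) and DBP7 (0.56 ± 0.13, not called with the heat libraries alone). SPB4 did not pass. It had 5.36, 4.73 and 4.67 CPM in heated S121A and 3.75, 4.57 and 4.86 CPM in heated WT, overlapping levels with a log2 difference of 0.16 ± 0.11, although SPB4 had been called in NaCl. In heated WT replicate 3 was the highest of its group for 9 of the 10 genes, HCA4 being the exception. Without WT heat replicate 3, ROK1 differed by 2.63 in place of 2.01, DBP3 by 1.80 in place of 1.39 and HCA4 by 3.13, and the same number of genes, 9, were called.

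The response of one strain minus that of the other compares the falls directly. A positive value means a smaller fall in S121A. For NaCl 7 of the 10 were called positive and 0 negative, where 6.82% of all genes were called positive and 1.53% negative, and the median of the 10 was 0.76 against 0.04 over all genes. HCA4 led at 1.52 ± 0.13, followed by DBP9 (1.27 ± 0.15), ROK1 (1.11 ± 0.20), DRS1 (1.06 ± 0.13) and DBP3 (0.91 ± 0.17). MAK5 (0.61 ± 0.17) and SPB4 (0.47 ± 0.13) were called too, but neither was with library totals alone (0.45 and 0.31). MAK5 also lost its call without S121A unstressed replicate 2 (0.63) or 3 (0.58), WT unstressed replicate 1 (0.63), 2 (0.63) or 3 (0.58), S121A NaCl replicate 1 (0.56) or 3 (0.57) and WT NaCl replicate 3 (0.58). SPB4 did so without S121A unstressed replicate 2 (0.47) or 3 (0.46), WT unstressed replicate 1 (0.47), 2 (0.47) or 3 (0.47), S121A NaCl replicate 3 (0.44) and WT NaCl replicate 1 (0.39). DBP10 (0.29 ± 0.13), DBP7 (0.27 ± 0.15) and HAS1 (0.26 ± 0.12) did not pass, though HAS1 did without WT NaCl replicate 1 (0.39).

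For heat 9 of the 10 were called positive and 0 negative, where 15.5% of all genes were called positive and 7.08% negative, and their median was 1.20 against 0.05. HCA4 had the 3rd highest value of all 6395 genes, 2.92 ± 0.14: it kept 18.5% of its unstressed mean in heated S121A and 2.46% in heated WT. DRS1 (2.02 ± 0.16) and ROK1 (1.98 ± 0.28, or 2.61 without WT heat replicate 3) had the 19th and the 20th. DBP3 and DBP9 were both at 1.32, MAK5 at 1.07, DBP10 at 0.88, HAS1 at 0.78 and DBP7 at 0.61. DBP7 lost its call without WT heat replicate 2 (0.50) and with library totals alone (0.39). SPB4, at 0.14 ± 0.14, was not called, and was at -0.09 with library totals alone. The NaCl and the heat responses share the unstressed libraries of each strain, so their values for a gene are not independent of each other.

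Ordered from high to low, the 6 groups fell the same way for 5 of the 10 genes: unstressed S121A, unstressed WT, S121A in NaCl, WT in NaCl, heated S121A and heated WT. For DRS1, DBP7 and DBP10 unstressed WT was above unstressed S121A, and for DBP9 heated S121A was above WT in NaCl. Neighbours in this order overlapped in the unstressed pair for 8 of the 10 genes, in WT in NaCl and heated S121A for DRS1 and MAK5, in the NaCl pair for DBP7 and in the heat pair for SPB4. The spread between libraries was widest in heated WT, with a median coefficient of variation of 17.2% over the 10 genes, against 6.79% in heated S121A and 3.29% in unstressed WT. For HCA4 heated S121A came above S121A in NaCl, with overlapping libraries, and both came above WT in NaCl without overlap.

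KAR2, the nearest upstream neighbour of HCA4, was measured beside it. In heat KAR2 rose in both strains, with log2 fold changes of 3.96 ± 0.08 in S121A and 4.04 ± 0.08 in WT, and its heat response difference of -0.08 ± 0.10 did not pass (edgeR, adjusted p = 0.607). In NaCl KAR2 was higher in S121A than in WT by 0.45 ± 0.07 (edgeR, adjusted p = 0.000111), and its NaCl response difference was positive, as that of HCA4 was, at 0.52 ± 0.10 (adjusted p = 0.00222). Whether transcripts running on from KAR2 add to the HCA4 count was not tested.

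Genes whose levels followed HCA4 most closely over the 18 libraries, among 4901 with a mean of at least 10 CPM, were YLR460C (Pearson r of log2(CPM + 1) of 0.980), PWP2 (0.978), FCY21 (0.978), RRP3 (0.977) and LYS4 (0.976). PWP2 encodes a subunit of the small-subunit processome, RRP3 another ribosome assembly helicase, FCY21 a relative of purine-cytosine permeases with a near-identical paralog, which makes its count uncertain, and LYS4 homoaconitase of lysine synthesis. Among the other 9 helicase genes DBP9 was nearest, ranked 23rd with r = 0.962, and HAS1 farthest, ranked 565th with r = 0.853. The coefficients describe these libraries, which all genes share and which include the unstressed ones.

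The rest of the helicase machinery was set beside the 10 through 3 lists. These lists too were written with earlier results of these data known. The genes named from them were picked mainly by the size of their change. Their calls and p-values are therefore a description and no independent support for a pattern. The other 9 RNA helicases known to act in ribosome assembly, DBP8, ECM16, DHR2, FAL1, RRP3, DBP2, DBP6, MTR4 and PRP43, were as follows. None was called between the strains without stress by edgeR, where 23.1% of all genes were. At an unadjusted p under 0.05 there were 2, where 2242 of all 6395 genes were. DESeq2 called 1, where it called 1671 of 6409 genes. In NaCl all 9 values were above 0 and 8 of 9 were called higher in S121A, where 14.6% of all genes were, with RRP3 at 1.39 ± 0.09 (edgeR, adjusted p = 1.51e-09) and MTR4, the helicase that feeds the exosome, at 1.05 ± 0.10 (adjusted p = 1.37e-07). In heat 9 of 9 were called higher, where 19.5% of all genes were, with MTR4 at 1.73 ± 0.12 (edgeR, adjusted p = 2.81e-09) and DHR2 at 1.72 ± 0.20 (adjusted p = 1.7e-06). Response differences were called positive in 6 of 9 for NaCl (6.82% of all genes) and 7 of 9 for heat (15.5%), with medians of 0.69 and 1.18, against the 0.76 and 1.20 of the 10.

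Most partner proteins were also called higher in the stressed mutant. Without stress edgeR called 0 of the 18 between the strains, where 23.1% of all genes were called. At an unadjusted p under 0.05 there were 0, where 2242 of all 6395 genes were. DESeq2 called 0, where it called 1671 of 6409 genes. Of the 18, which include RRP5 for ROK1, BFR2 and ENP2 for HCA4 and the ERB1, YTM1 and NOP7 complex of the large subunit, 14 were called higher and 0 lower in S121A in NaCl, where 14.6% of all genes were called higher and 9.19% lower, and 17 of the 18 values were above 0. In heat 14 were called higher and 1 lower, where 19.5% of all genes were called higher and 14.2% lower, and 16 of the 18 values were above 0. UTP14, the activator of the helicase Ecm16, was higher in NaCl by 1.60 ± 0.16 (edgeR, adjusted p = 3.59e-07). YTM1 was higher in heat by 1.99 ± 0.14 (adjusted p = 2.44e-09) and RRP5 by 1.98 ± 0.14 (adjusted p = 2.27e-09). Of the 18, 13 had a called positive response difference in NaCl, where 6.82% of all genes did, and 13 in heat, where 15.5% did. Their medians were 0.79 and 1.25, against 0.04 and 0.05 over all genes. SQS1, a cofactor of Prp43, was the one called lower in heated S121A, at -0.33 ± 0.10 (adjusted p = 0.0130).

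The RNA helicases of other steps, meaning steps other than the nucleolar ribosome assembly described above, were set beside these as a contrast. The 21 genes of translation, splicing, export, decay and mitochondria had median response differences of 0.03 for NaCl and 0.01 for heat. For heat their median log2 fold changes were -0.51 in S121A and -0.55 in WT. In S121A 13 of 21 were called lower in heat, where 39.7% of all genes were, and in WT 12 of 21, where 39.3% were. Without stress DHH1, a helicase of mRNA decay, was lower in S121A, at -0.29 ± 0.10 (edgeR, adjusted p = 0.0370) and the mitochondrial MRH4 at -0.31 ± 0.11 (adjusted p = 0.0482). With library totals alone 0 of the 21 were called without stress, and with median-ratio size factors 2 were called lower. Between the strains edgeR called 1 of the 21 higher and 1 lower in NaCl, where 14.6% of all genes were called higher and 9.19% lower. The genes called were DBP5 at 0.19 ± 0.06 (edgeR, adjusted p = 0.0363) and SLH1 at -0.27 ± 0.10 (adjusted p = 0.0474). These counts became 0 higher and 1 lower with median-ratio size factors, and 1 higher and 0 lower with library totals alone. In heat edgeR called 1 of the 21 higher and 5 lower, where 19.5% of all genes were called higher and 14.2% lower. SEN1 was at 0.32 ± 0.07 (edgeR, adjusted p = 0.00108) and IRC3 at -0.36 ± 0.09 (adjusted p = 0.00479). Of the NaCl response differences of the 21 edgeR called 0, where 6.82% of all genes were called positive and 1.53% negative. At an unadjusted p under 0.05 there were 3, where 1310 of all 6395 genes were. DESeq2 called 1, where it called 668 of 5892 genes. Of their heat response differences edgeR called SEN1, a helicase of transcription termination, at 0.48 ± 0.09 (adjusted p = 0.000789) and IRC3, a mitochondrial helicase, at -0.47 ± 0.13 (adjusted p = 0.0125). Over all genes 15.5% of the heat response differences were called positive and 7.08% negative. TIF1 and TIF2, which encode the same protein, may share reads and are uncertain as single genes. A PAC core stood before 9 of the 9 other assembly helicases, 15 of the 18 partners and 5 of the 21 helicases of other steps. Over all protein-coding genes the share was 19.1%. Of the 18 partners 10 held 2 or more PAC cores, 1 held 4 or more, 9 an RRPE core and 8 both cores. Of the 9 other assembly helicases 2 held 2 or more PAC cores, 0 held 4 or more and 3 held both cores. Of the 21 helicases of other steps 0 held 2 or more PAC cores, 2 an RRPE core and 0 both. Among the 10 genes described 5 held 2 or more PAC cores, so repeats and both cores were not particular to them.

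**Figure D4:**
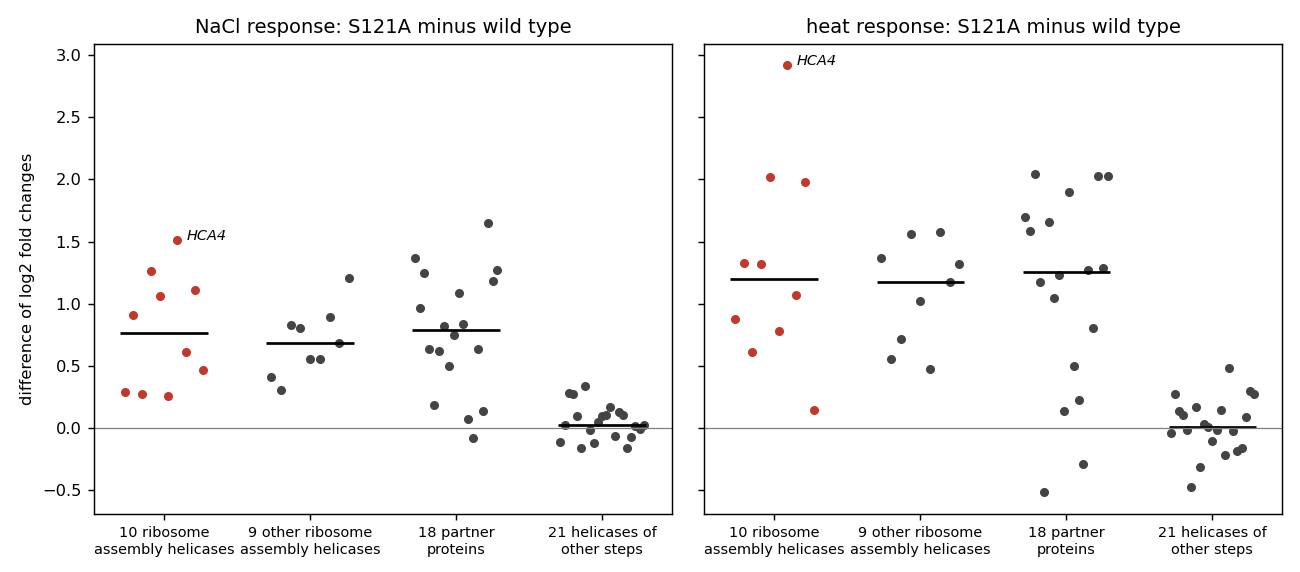
Response of S121A minus response of WT (difference of log2 fold changes) in NaCl (left) and heat (right), 1 point per gene and a line at each median, for the 10 genes described (red) and the 3 lists set beside them. The medians of the 10 are 0.76 in NaCl and 1.20 in heat, those of the 21 helicases of other steps 0.03 and 0.01, and HCA4 stands at 1.52 and 2.92.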

How the data were processed

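Total RNA was extracted with hot phenol, and poly(A) libraries (TruSeq Stranded mRNA) were sequenced as 50-base paired ends, per the labels' protocols. The authors deposited a table of raw counts per gene, made with TopHat2 2.0.1 and featureCounts 1.4.6-p5 on sacCer3/R64, per the submitters' processing notes. Their settings for strand, multiple mapping and reads or fragments are not given in the sources used here. Of 6746 features 6395 passed edgeR's filterByExpr, and the rest held 0.00142% of the counts. Counts were fitted with edgeR 4.0.16 (quasi-likelihood, robust, TMM, 1 mean per group, all 18 libraries) in R 4.3.3, with two-sided tests, Benjamini-Hochberg adjustment over all genes and a threshold of 0.05. SE is the log2 fold change divided by the square root of F. The script was tested on simulated counts in which a small set of genes changed, in heated S121A only. That test does not bear on how scaling handles the wide shifts under stress. The p-values measure the spread between these libraries only. Alternatives were DESeq2 1.42.0, other scalings, no filter, the compared libraries alone, the replicate number as a block and each library left out. The members and gene lists were chosen with earlier results of these data known. All 10 members are named, and from each further list up to 4 genes with the largest change per comparison, plus those singled out as exceptions. KAR2 was named as the neighbour of HCA4.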

Additional observations from a re-analysis of the deposited data

Results flagged for a closer look

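The contrast of one strain's response with the other's was called (edgeR, adjusted p under 0.05) for 16 values among the 10 helicase genes. All were positive, so each of these falls was smaller in S121A than in WT. Over all genes 6.82% were called positive for NaCl and 15.5% for heat. For NaCl these were HCA4 (1.52), DBP9 (1.27), ROK1 (1.11), DRS1 (1.06), DBP3 (0.91), MAK5 (0.61) and SPB4 (0.47). For heat they were HCA4 (2.92), DRS1 (2.02), ROK1 (1.98), DBP9 (1.32), DBP3 (1.32), MAK5 (1.07), DBP10 (0.88), HAS1 (0.78) and DBP7 (0.61). Each listed value is a difference of log2 fold changes. The NaCl calls of MAK5 and SPB4 and the heat call of DBP7 did not hold under every alternative, as given above. The genes were listed with such results known, so these values are a description.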

How the results depend on the processing

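Of 144 counts of called helicase genes under alternatives, 142 were within 1.5 times the reported count. Without stress, S121A against WT, the count was 1 with library totals alone and 2 with the unstressed libraries alone, in place of 0. With one library left out, the counts ran from 0 to 0 without stress, 7 to 9 for S121A against WT in NaCl, 9 to 9 in heat, 5 to 7 for the NaCl and 8 to 9 for the heat response difference. Of 1440 values for single genes, 31 lost a call and 5 gained one. The sign changed in 9. One of these was called, HCA4 in heat against NaCl in S121A, at -0.24 with library totals alone. The other 8 were called under neither setting, 7 of them S121A against WT without stress (DRS1, DBP7, DBP10 and ROK1) and 1 the heat response difference of SPB4. The HCA4 heat response difference ran from 2.69 to 2.97. No pairing of the libraries by replicate number was seen. Same-numbered libraries of different groups had a median correlation of deviations of -0.018 (from -0.572 to 0.621). Libraries with different numbers had -0.010 (from -0.689 to 0.665), and 7 of 18 libraries were closest to their own number. With ranges this wide the check cannot settle whether the numbers mark pairs. With the number as a block, 9 genes were still called in heat, and the other counts were the same too. Library totals alone moved the median of all genes by -0.61 for heat in S121A and by -0.39 in WT, and the split of higher and lower calls to 1372 and 3899 in S121A (2579 and 2536 with TMM) and to 1760 and 3326 in WT (2595 and 2512). For NaCl in S121A it was 1572 and 3139 (2287 and 2256), for heat against NaCl 954 and 3415 in S121A (1956 and 2148) and 1209 and 3025 in WT (2104 and 2122). It was 1144 and 232 between the unstressed strains (579 and 901), 215 and 257 for the NaCl response difference (436 and 98) and 503 and 1229 for the heat one (992 and 453). Calls over all genes numbered 1480 without stress, but 2543 with those libraries alone, 869 without S121A replicate 2 and 927 without WT replicate 1. In heat they numbered 2156, but 1218 with those libraries alone, and for the heat response difference 1445, but 2340, 939 and 934 without WT heat replicate 1, WT heat replicate 2 or S121A unstressed replicate 2. The cause of these shifts was not tested. Depth limits ROK1 most, with 6 to 27 counts in heated WT.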
